A study of Mus musculus with 9 samples.

Results

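The genes described here are HSF1, the transcription factor of the heat shock response, and its main cytosolic chaperone targets. The list held 10 genes, Hsf1, Hspa1a, Hspa1b, Hspa8, Hsp90aa1, Hsp90ab1, Hspb1, Hsph1, Dnajb1 and Bag3. Of these, 9 were matched by symbol among the 15228 genes of the table, and Hspb1, a small heat shock protein, was not analysed here. RNA was sequenced from cells sorted as retinal ganglion cells (RGCs) of WT young adult mice in 3 groups of 3 libraries. The control group (Ctrl) came from normal retinas. The ONC group was taken on day 3 after optic nerve crush with an intraocular injection of PBS, the vehicle. The TPEN group was taken on day 3 after the same crush with an intraocular injection of TPEN, a cell-permeable chelator of zinc and other transition metals. No injection is described for Ctrl. Differences from Ctrl, called after ONC below, thus combine crush and injection, which cannot be told apart. The sort kept CD90.2-positive cells and removed cells with other surface antigens. The sources do not say whether each library is from its own mice, so p-values measure the spread between libraries, which may be technical. Levels are reads per kilobase of exon and per 1000000 reads (RPKM), so that levels of different genes can be compared per length.

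In unstressed cells, HSF1 is held inactive by chaperones, and it is freed when unfolded proteins occupy them. It then binds heat shock elements, which are inverted repeats of the letters GAA, and raises transcription of chaperone genes. HSP70 proteins bind short stretches of unfolded chains, J-domain proteins such as DNAJB1 bring them clients, and nucleotide exchange factors such as HSPH1 and BAG3 release them. HSP90 proteins act later, on clients that are nearly folded, among them kinases and steroid receptors. Both families have a member known as stress-inducible (Hspa1a and Hspa1b, Hsp90aa1) and a member known as constitutive (Hspa8, Hsp90ab1), and the comparison of these pairs runs through the results.

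The libraries held 19946993 to 23109754 reads in all, and the fewest reads of any of these genes in a library were the 46 of Bag3 in Ctrl replicate 1. Read numbers within each group varied beyond counting error (chi-square per gene 2.3 to 5.32 on average), so all 9 were kept as separate samples. The label was checked against markers. Rbpms, Slc17a6 and Pou4f1, which define RGCs, were at mean levels of 0.439, 0.3802 and 0.332 RPKM, while the rod gene Gnat1 was at 10641.5 RPKM. Of the 12 genes of the RGC list, 10 were in the table. The others of these were higher, with mean levels of 240.03 RPKM for Nefl, 51.5 for Nefm, 26.1 for Nefh and 20.5 for Sncg. Gap43 was at a mean of 17.1, Thy1 at 5.74 and Isl1 at 1.83 RPKM. The cells are called cells sorted as RGCs.

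The promoters of these genes are shown because HSF1 acts through heat shock elements. The RefSeq promoter table (GRCm38.p6) held 6 of the 10 genes, Hspa1a, Hspa1b, Hsph1, Dnajb1, Bag3 and Hspb1. Hsf1, Hspa8, Hsp90aa1 and Hsp90ab1 had no entry and were not searched. The motif searched was GAANNTTC or TTCNNGAA, which are 2 inverted units of a heat shock element and read the same on both strands. It lay in the 250 bases before the RefSeq start in 12.8% of the 32851 promoters, and in those of Hspa1a, Hspa1b, Hsph1 and Hspb1. It was absent from those of Dnajb1 and Bag3. A motif of 3 units, GAANNTTCNNGAA or TTCNNGAANNTTC, lay in 0.466% of all promoters and in none of these 6 genes' windows. A match is a description of the letters and not of binding. In the sequences, printed on the strand of the gene, capitals mark the motif. The 80 bases of Hspa1a at chr17:34972217-34972296 and of Hspa1b at chr17:34959299-34959378, both on the minus strand, were the same letter for letter, with the motif beginning 104 bases before the start. The 30 bases of Hsph1 lie at chr5:149636351-149636380 on the minus strand. The motif begins 54 or 33 bases before the start, depending on the RefSeq entry. The gene as annotated in the deposited data runs from 149614287 to 149636376, so the motif lies within it and not before its outermost start.
Hspa1a: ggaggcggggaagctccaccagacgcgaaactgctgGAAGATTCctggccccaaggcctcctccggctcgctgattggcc
Hspa1b: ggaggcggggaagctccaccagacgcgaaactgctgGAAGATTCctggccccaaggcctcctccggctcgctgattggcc
Hsph1: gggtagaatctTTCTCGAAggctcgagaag

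After ONC, 5 of the 9 heat shock genes were higher than in Ctrl, namely Bag3, Hsp90ab1, Dnajb1, Hspa8 and Hsph1. The mean level of Bag3 was 3.13-fold that of Ctrl, while the other 4 rose by 19.7% to 32.5% of their mean. The genes best known as heat-inducible, Hspa1a, Hspa1b and Hsp90aa1, did not pass the test, and neither did Hsf1 itself. In TPEN/ONC, Hsp90ab1, Hspa8 and Dnajb1 were lower, and Bag3 was not. Among all 13566 genes tested, 11.7% were higher in ONC/Ctrl and 4.14% were lower in TPEN/ONC under the same test, limma on log2(RPKM + 0.1) with an adjusted p under 0.05. Bag3 alone among these genes also changed 1.5-fold or more, in ONC/Ctrl, where 4.58% of all genes were that much higher, and in TPEN/Ctrl, where 3.45% were. In these bulk samples, fewer cells of a type and less RNA per cell cannot be told apart.

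**Figure D1:**
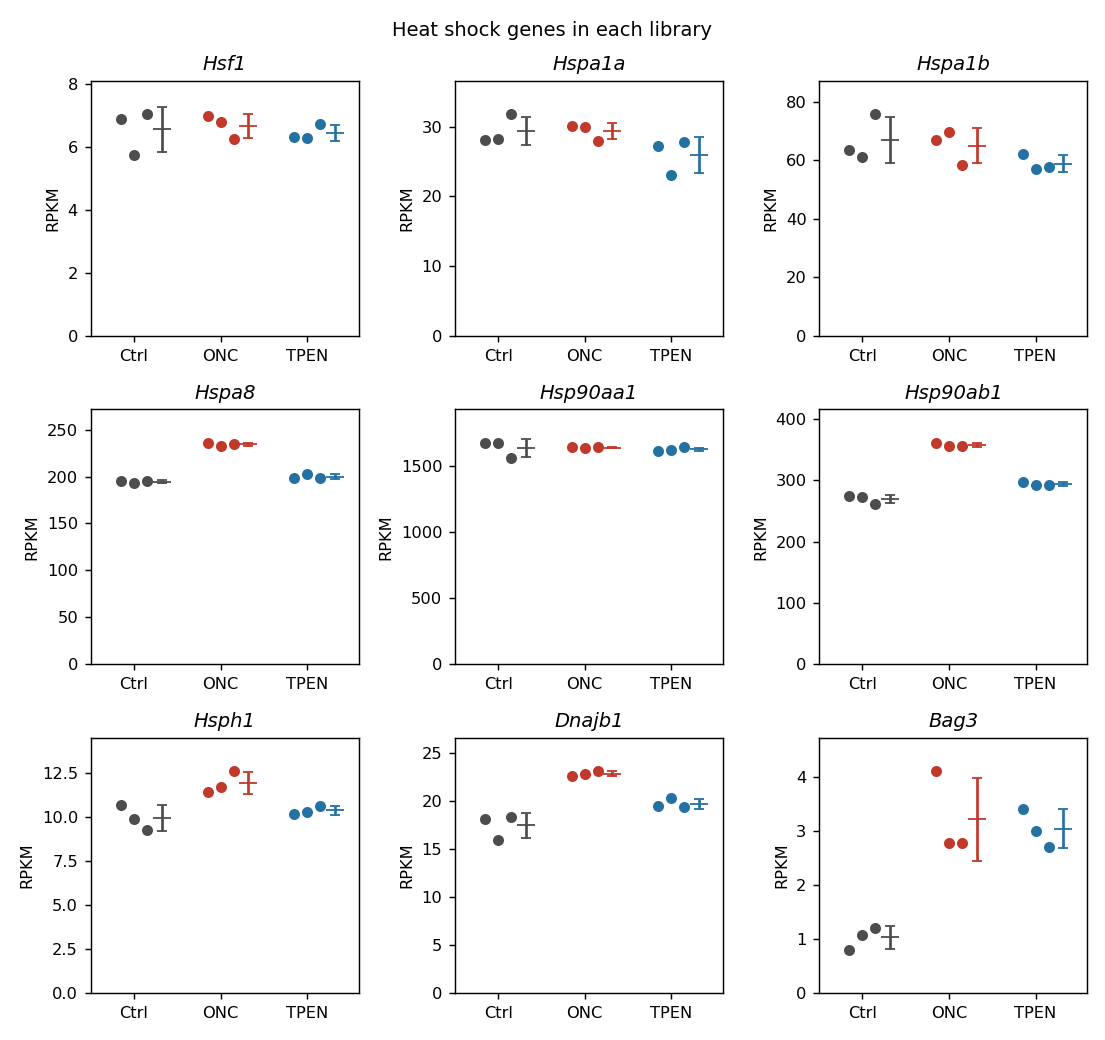
Level in RPKM (vertical axes, linear from 0) of the 9 heat shock genes in each library of the Ctrl, ONC and TPEN groups. Points are libraries and bars are the mean ± SD of 3 libraries. The ONC points of Hspa8, Hsp90ab1, Hsph1 and Dnajb1 lie above all Ctrl and TPEN points, while the ONC and TPEN points of Bag3 lie together above Ctrl, and those of Hsp90aa1 lie level in the 3 groups.

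The factor comes first. Hsf1, on chromosome 15 (76477445 to 76500972, plus strand, GRCm38), was at 6.90, 5.75 and 7.03 RPKM in Ctrl libraries, 6.98, 6.77 and 6.24 RPKM in those of ONC and 6.30, 6.27 and 6.73 RPKM in those of TPEN. The 3 groups overlapped. The log2 fold change of Hsf1 was 0.03 in ONC/Ctrl (95% interval -0.16 to 0.21, limma adjusted p = 0.865) and -0.05 in TPEN/ONC (95% interval -0.24 to 0.14, limma adjusted p = 0.786). HSF1 is controlled mainly through its protein, and the table holds no measure of its activity.

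Hspa1a and Hspa1b encode nearly the same inducible HSP70 protein and lie next to each other on chromosome 17 (34969190 to 34972156 and 34956436 to 34959238, minus strand, 1 exon each). Hspa1a was at 28.1, 28.3 and 31.8 RPKM in Ctrl libraries, 30.1, 30.01 and 27.98 RPKM in those of ONC and 27.2, 23.0 and 27.8 RPKM in those of TPEN. Hspa1b was at 63.6, 61.0 and 75.7 RPKM in Ctrl libraries, 66.8, 69.7 and 58.2 RPKM in those of ONC and 62.1, 56.8 and 57.7 RPKM in those of TPEN. Ctrl and ONC overlapped for both genes, and the TPEN libraries of Hspa1a were lower than every library of the other groups. The log2 fold change in ONC/Ctrl was 0.00 for Hspa1a (standard error, SE, 0.08, limma adjusted p = 0.9987) and -0.04 for Hspa1b (SE 0.09, limma adjusted p = 0.808). Its 95% interval ran from -0.17 to 0.17 for Hspa1a and from -0.23 to 0.16 for Hspa1b. The sign for Hspa1a turned with quantile normalization and with TMM scaling, to -0.04 and -0.02 on the log2 scale. In TPEN/ONC the log2 fold change was -0.18 for Hspa1a (limma adjusted p = 0.198) and -0.14 for Hspa1b (limma adjusted p = 0.403). With voom on the whole reads, Hspa1a passed the test in TPEN/ONC (adjusted p = 0.0402), and both passed as lower in TPEN/Ctrl (adjusted p = 0.0366 and 0.0474).

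The reads of this pair are uncertain. Their transcripts were 99.1% identical over 2200 aligned bases, with an identical run of 638 bases, and how reads with several matches were counted is not given. The ratio of Hspa1b to Hspa1a stayed between 2.08 and 2.47 in the 9 libraries. Their promoters shared 247 of 250 bases. Hspa1a also shares 564 exon bases with Gm20481 on the other strand, and whether strand was used in counting is not given. The summed RPKM of the pair, whose exon lengths are 2967 and 2803 bases, depends on whether reads with several matches were kept. It was 89.3 to 107.4 RPKM in Ctrl, 86.2 to 99.7 in the ONC and 79.9 to 89.2 in the TPEN libraries. Ctrl and ONC overlapped in this sum too.

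Hspa8 encodes HSC70, the constitutive HSP70 that also uncoats clathrin vesicles at synapses, and lies on chromosome 9 (40800984 to 40810087, plus strand). It was at 195.6, 192.8 and 194.9 RPKM in Ctrl libraries, 235.9, 232.7 and 234.8 RPKM in those of ONC and 198.1, 202.6 and 198.3 RPKM in those of TPEN. The ONC libraries stood above all others, and the TPEN libraries stood slightly above Ctrl without overlap. On the log2 scale, the difference of Hspa8 was 0.27 in ONC/Ctrl (SE 0.02, limma adjusted p = 1.9e-05) and -0.23 in TPEN/ONC (SE 0.02, limma adjusted p = 0.00026). In TPEN/Ctrl it was 0.04 (95% interval -0.01 to 0.09, limma adjusted p = 0.294). Its spread within groups was small, with an SD of 0.689% to 1.28% of the mean.

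Hsp90aa1, the HSP90 gene known as inducible, lies on chromosome 12 (110690605 to 110702728, minus strand) and had the highest level of the 9 genes, rank 24 of all genes by mean RPKM. It was at 1672, 1669 and 1558 RPKM in Ctrl libraries, 1637, 1629 and 1641 RPKM in those of ONC and 1610, 1619 and 1637 RPKM in those of TPEN. The groups overlapped, and the ONC mean was 0.153% above the Ctrl mean. The log2 fold change in ONC/Ctrl was 0.00 (95% interval -0.06 to 0.07, limma adjusted p = 0.957), so a rise of the size of that in Hsp90ab1 lay outside the interval. Hsp90aa1 was sensitive to scaling: quantile normalization gave 0.09 (adjusted p = 0.0088) and TMM scaling -0.02 (adjusted p = 0.695).

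Hsp90ab1, the constitutive HSP90 gene, lies on chromosome 17 (45567775 to 45573271, minus strand). It was at 274.6, 272.4 and 261.8 RPKM in Ctrl libraries, 360.9, 354.8 and 355.9 RPKM in those of ONC and 296.9, 291.7 and 291.9 RPKM in those of TPEN. The 3 groups did not overlap, and TPEN lay between the others. The log2 fold change of Hsp90ab1 was 0.41 in ONC/Ctrl (SE 0.02, limma adjusted p = 3.3e-06), -0.28 in TPEN/ONC (limma adjusted p = 0.00016) and 0.12 in TPEN/Ctrl (limma adjusted p = 0.0095). It was called in all 3 comparisons, with 8.36% of all genes called higher in TPEN/Ctrl.

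Hsph1 encodes HSP110, a nucleotide exchange factor of HSP70 that takes part in dissolving aggregates, and lies on chromosome 5 (149614287 to 149636376, minus strand). It was at 10.7, 9.92 and 9.25 RPKM in Ctrl libraries, 11.4, 11.7 and 12.6 RPKM in those of ONC and 10.2, 10.3 and 10.6 RPKM in those of TPEN. ONC was above every library of the other groups, and TPEN overlapped Ctrl. Hsph1 had a log2 fold change of 0.26 in ONC/Ctrl (SE 0.06, limma adjusted p = 0.0165), and without ONC replicate 3 it was 0.22 and lost the call (adjusted p = 0.0616). In TPEN/ONC it was -0.20 (95% interval -0.34 to -0.06, limma adjusted p = 0.0931), and passed with voom (adjusted p = 0.0104).

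Dnajb1 encodes the main HSP40, the J-domain protein that delivers clients to inducible HSP70, and lies on chromosome 8 (83608193 to 83612653, plus strand). It was at 18.1, 16.0 and 18.3 RPKM in Ctrl libraries, 22.6, 22.8 and 23.1 RPKM in those of ONC and 19.5, 20.3 and 19.4 RPKM in those of TPEN. The 3 groups did not overlap, in the same order as for Hsp90ab1. On the log2 scale, the difference of Dnajb1 was 0.39 in ONC/Ctrl (SE 0.05, limma adjusted p = 0.00072) and -0.21 in TPEN/ONC (SE 0.05, limma adjusted p = 0.0429). Unlike Hsp90ab1, Dnajb1 did not pass the test in TPEN/Ctrl, where it passed with voom (adjusted p = 0.0247) and in limma without Ctrl replicate 3 (adjusted p = 0.0440). The call in TPEN/ONC was close to the threshold. It was lost with quantile normalization (adjusted p = 0.0724), without Ctrl replicate 1 (0.0546), and without any of the ONC or TPEN libraries (0.0685 to 0.131), while the log2 fold change stayed between -0.23 and -0.18.

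Bag3 encodes a cochaperone that releases clients from HSP70 and routes them to autophagy, and lies on chromosome 7 (128523616 to 128546981, plus strand). It had the lowest level of the 9 genes, at 0.801, 1.08 and 1.21 RPKM in Ctrl libraries, 4.11, 2.79 and 2.77 RPKM in those of ONC and 3.42, 3.00 and 2.70 RPKM in those of TPEN. These levels rest on 46 to 64 reads in Ctrl, 163 to 242 reads in ONC and 138 to 175 reads in TPEN. All crushed libraries were above all Ctrl libraries, and ONC and TPEN overlapped. On the log2 scale, the difference of Bag3 was 1.55 in ONC/Ctrl (SE 0.18, limma adjusted p = 0.0003) and 1.49 in TPEN/Ctrl (SE 0.18, limma adjusted p = 0.0006). In TPEN/ONC it was -0.06 (95% interval -0.48 to 0.35, limma adjusted p = 0.889), an interval that leaves room for a decrease as large as that of Hsp90ab1. Its sign there turned without ONC replicate 1, the highest library, to 0.12, and without TPEN replicate 3, to 0.016.

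**Figure D2:**
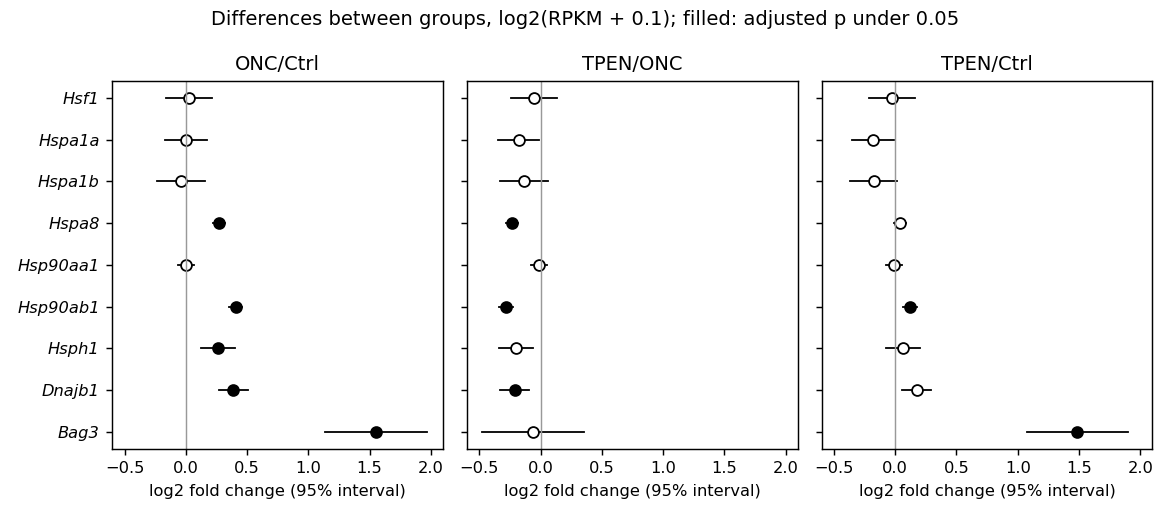
Log2 fold change on the log2(RPKM + 0.1) scale (horizontal axes) of each heat shock gene in the 3 comparisons, with its 95% interval from limma. Filled points passed an adjusted p under 0.05. Bag3 stands at 1.55 in ONC/Ctrl and 1.49 in TPEN/Ctrl, and Hsp90ab1, Hspa8 and Dnajb1 are the filled points left of 0 in TPEN/ONC.

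For the rises that passed, the share left in TPEN is given as a description, and the shares were not tested against each other. The genes were taken for their rise in ONC, and the ONC mean is also in the denominator. This share is the TPEN level less the Ctrl mean, over the ONC mean less the Ctrl mean, and both differences share the Ctrl libraries. It was 13.0% ± 6.36 for Hspa8, 27.3% ± 3.34 for Hsp90ab1, 21.5% ± 12.01 for Hsph1, 42.0% ± 9.56 for Dnajb1 and 91.7% ± 16.4 for Bag3 (SD over the 3 TPEN libraries). The SD leaves out the error of the Ctrl and ONC means. The share of Hsph1 rested on single Ctrl libraries, since it was 4.25% without Ctrl replicate 3 and 34.1% without Ctrl replicate 1. Leaving out 1 library gave 9.36% to 15.02% for Hspa8, 23.9% to 29.3% for Hsp90ab1, 32.6% to 46.3% for Dnajb1 and 83.1% to 115.0% for Bag3. Without overlap between libraries, 5 genes were higher in ONC/Ctrl, against 20.7% of all genes, and 5 were lower in TPEN/ONC, against 15.6% of all genes. In TPEN/Ctrl, 4 were higher without overlap, against 18.1% of all genes, and Hspa1a was lower, against 13.3%. The median log2 fold change of the 9 genes was 0.26 in ONC/Ctrl and -0.18 in TPEN/ONC, where the medians over all genes tested were 0.02 and -0.01. In TPEN/Ctrl it was 0.04, against 0.01 over all genes. ONC/Ctrl and TPEN/ONC share the ONC libraries, so these values are not independent of each other.

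Whether the inducible and constitutive genes of a family moved apart was tested on their ratio within a library, which a common scaling factor of the library does not change. The ratio of Hsp90aa1 to Hsp90ab1 was 6.09, 6.13 and 5.95 in Ctrl, 4.54, 4.59 and 4.61 in ONC and 5.42, 5.55 and 5.61 in TPEN. The groups did not overlap, with Ctrl highest and ONC lowest. Over the 3 groups, the exact permutation p was 0.00357, the least possible with 280 splits, and 0.00714 when adjusted over the 2 ratios. The ratio of Hspa1a plus Hspa1b to Hspa8 was 0.469, 0.463 and 0.551 in Ctrl, 0.411, 0.428 and 0.367 in ONC and 0.450, 0.394 and 0.431 in TPEN. Ctrl was above both crushed groups, which overlapped. The exact permutation p of this ratio was 0.0214, also after adjustment, and it rose to 0.136 without Ctrl replicate 3, 0.0714 without ONC replicate 1, 0.0643 without ONC replicate 3 and 0.0607 without TPEN replicate 3. For each pair of groups, 3 libraries against 3 cannot give a two-sided exact p below 0.1. That value was reached for both ratios in ONC/Ctrl and TPEN/Ctrl, and in TPEN/ONC for the HSP90 ratio, where that of HSP70 gave an exact p of 0.4. Both ratios use the same values as the fits above, in which Hspa8 and Hsp90ab1 rose after ONC and their inducible partners did not pass. They are thus no separate support for those rises. The HSP70 ratio rests on the reads of the uncertain pair. The HSP90 transcripts were 76.1% identical, with an identical run of at most 33 bases.

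**Figure D3:**
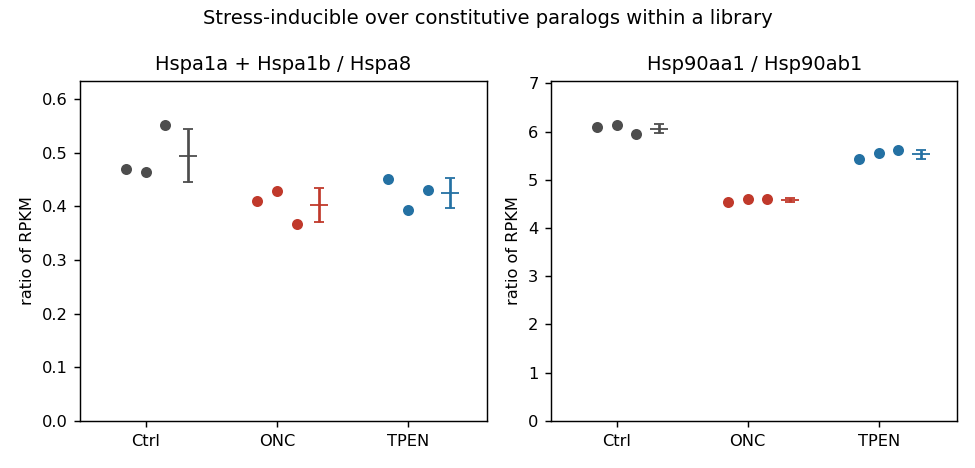
Ratio of RPKM of stress-inducible to constitutive genes (vertical axes, linear from 0) within each library, for HSP70 on the left and HSP90 on the right. Points are libraries and bars the mean ± SD of 3 libraries. The HSP90 ratio is near 6.06 in Ctrl, 4.58 in ONC and 5.53 in TPEN with no overlap, while the HSP70 ratios of ONC and TPEN overlap.

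The profiles of the genes over the 9 libraries fell together in part, which is given as a description, since the libraries share groups and scaling. Hspa8, Hsp90ab1, Dnajb1 and Hsph1 had pairwise Pearson correlations of 0.80 to 0.97 on the log2 scale, with the highest for Hspa8 and Hsp90ab1. Hspa1a and Hspa1b correlated with each other at 0.80, and Hspa1b with Hspa8 at 0.10. Hsp90aa1 and Hsp90ab1 correlated at 0.17. The tested genes outside the list most like the mean profile of the 9 genes were Mtcl1 (0.985), Scn8a (0.980), Eef1b2 (0.980), Brd2 (0.979) and Pfn1 (0.978). The genes were not scaled before averaging, so Bag3, with the largest change and the fewest reads, weighs most in this profile. Those most like Hspa1b were Casz1 (0.961), Tulp1 (0.956), Eef2 (0.944), Cc2d1b (0.944) and C2cd2l (0.936). Each value is a Pearson correlation over 9 libraries, the highest among the 13566 genes tested.

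A wider chaperone network was described by 7 lists of 66 other genes. They were listed as cytosolic, but where each protein lies was not checked. Of these genes, 58 were tested. In ONC/Ctrl, 8 were higher and 3 lower, or 13.8% and 5.17%, near the 11.7% and 6.97% over all genes. In TPEN/ONC, 3 were higher and 2 lower, where 3.24% and 4.14% of all genes were. In TPEN/Ctrl, 4 were higher and 2 lower, where 8.36% and 5.01% of all genes were. The median log2 fold change of the network was 0.02 in ONC/Ctrl and -0.02 in TPEN/ONC. In this limma fit, these counts of the network lay near the background, while voom gave the network more calls in TPEN/ONC, as listed below.

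Every tested gene of the network differed by less than 1.5-fold in each comparison. Both small heat shock proteins tested rose after ONC. Cryab, which encodes alpha-B crystallin, was at 9.02, 9.51 and 11.5 RPKM in Ctrl libraries, 13.5, 13.5 and 12.01 RPKM in those of ONC and 9.71, 9.74 and 9.08 RPKM in those of TPEN. Its log2 fold change was 0.38 in ONC/Ctrl (limma adjusted p = 0.0147) and -0.45 in TPEN/ONC (limma adjusted p = 0.0158), and ONC stood above both other groups, which overlapped. Leaving out Ctrl replicate 1, Ctrl replicate 2, ONC replicate 1 or ONC replicate 2 raised the adjusted p in ONC/Ctrl to at most 0.0564. In TPEN/ONC it rose to at most 0.0643 without ONC replicate 1, ONC replicate 2 or TPEN replicate 3. Hspb6, which shares 122 exon bases with Proser3 on the other strand, had log2 fold changes of 0.41 in ONC/Ctrl (limma adjusted p = 0.00022) and 0.31 in TPEN/Ctrl (limma adjusted p = 0.0019).

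Hsf2, the second heat shock factor, moved opposite to the genes that rose. It was at 9.77, 11.0 and 9.38 RPKM in Ctrl libraries, 8.16, 7.66 and 8.20 RPKM in those of ONC and 9.77, 9.11 and 9.88 RPKM in those of TPEN, with ONC below all other libraries. Hsf2 had a log2 fold change of -0.32 in ONC/Ctrl (limma adjusted p = 0.0079) and 0.26 in TPEN/ONC (limma adjusted p = 0.0472). The latter call was lost without Ctrl replicate 1 and without any ONC or TPEN library (adjusted p up to 0.148). Hspa12a, a distant HSP70 relative, was at 5.09, 5.30 and 5.15 RPKM in Ctrl libraries, 3.74, 4.22 and 4.03 RPKM in those of ONC and 5.47, 5.24 and 5.002 RPKM in those of TPEN. Its log2 fold change was -0.37 in ONC/Ctrl (limma adjusted p = 0.0038) and 0.38 in TPEN/ONC (limma adjusted p = 0.0087), and both calls held without any single library. Hspa4l, an HSP110 protein, was higher in TPEN/ONC, with 0.15 on the log2 scale (limma adjusted p = 0.022), and lost the call without ONC replicate 2 or 3 or TPEN replicate 1 or 3 (adjusted p of at most 0.0817).

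Among the cochaperones, Hspbp1, a nucleotide exchange factor of HSP70, had a log2 fold change of 0.44 in ONC/Ctrl (limma adjusted p = 0.020) and -0.42 in TPEN/ONC (limma adjusted p = 0.0491). The decrease lost its call with TMM scaling (adjusted p = 0.0515), without Ctrl replicate 1 (0.0618) and without any ONC or TPEN library (0.0929 to 0.138). The rise lost it without Ctrl replicate 1 or 3 or ONC replicate 1 or 2, with adjusted p of at most 0.0731. The J-domain genes Dnajc2, Dnajc8 and Dnaja1 rose in ONC/Ctrl by 0.28, 0.25 and 0.19 on the log2 scale, and Dnajc5, which encodes a synaptic vesicle chaperone, fell by 0.23. The limma adjusted p of these 4 genes ranged from 0.00055 to 0.0217. The rise of Dnaja1, which shares 608 exon bases with Smu1 on the other strand, lost its call with quantile normalization (adjusted p = 0.0805) and without ONC replicate 1 or 2 (0.0784 and 0.0614). Of 14 HSP90 cochaperones, Fkbp5 passed in ONC/Ctrl, with 0.39 on the log2 scale (limma adjusted p = 0.0063). Stip1, which links HSP70 to HSP90, was at means of 59.8 (Ctrl), 61.3 (ONC) and 55.9 RPKM (TPEN) (limma adjusted p = 0.634 in ONC/Ctrl). Of 8 subunits of the chaperonin TRiC, Tcp1 passed, with a log2 fold change of 0.15 in ONC/Ctrl (limma adjusted p = 0.0073), but it shares 571 exon bases with Acat3 on the other strand. Stip1 was named after its values were seen.

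In TPEN/Ctrl, the genes of the network that passed as higher were Hspb6, Hsbp1, Dnajc2 and Dnajc8, and those that passed as lower were Dnaja4 and Dnajc5. The log2 fold change was 0.20 for Hsbp1, which encodes a protein that binds HSF1, 0.18 for Dnajc2 and 0.16 for Dnajc8. It was -0.16 for Dnaja4, which shares 1581 exon bases with Wdr61 on the other strand, and -0.14 for Dnajc5. The limma adjusted p of these 5 genes ranged from 0.0112 to 0.0382. The calls of Dnajc8, Dnaja4 and Dnajc5 were lost without Ctrl replicate 2 or 3 or TPEN replicate 1 or 2, and those of Dnaja4 and Dnajc5 also without TPEN replicate 3 (adjusted p of at most 0.0971). That of Hsbp1 was lost without Ctrl replicate 1 or 3, ONC replicate 1 or 3 or TPEN replicate 2 or 3 (adjusted p of at most 0.119).

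**Figure D4:**
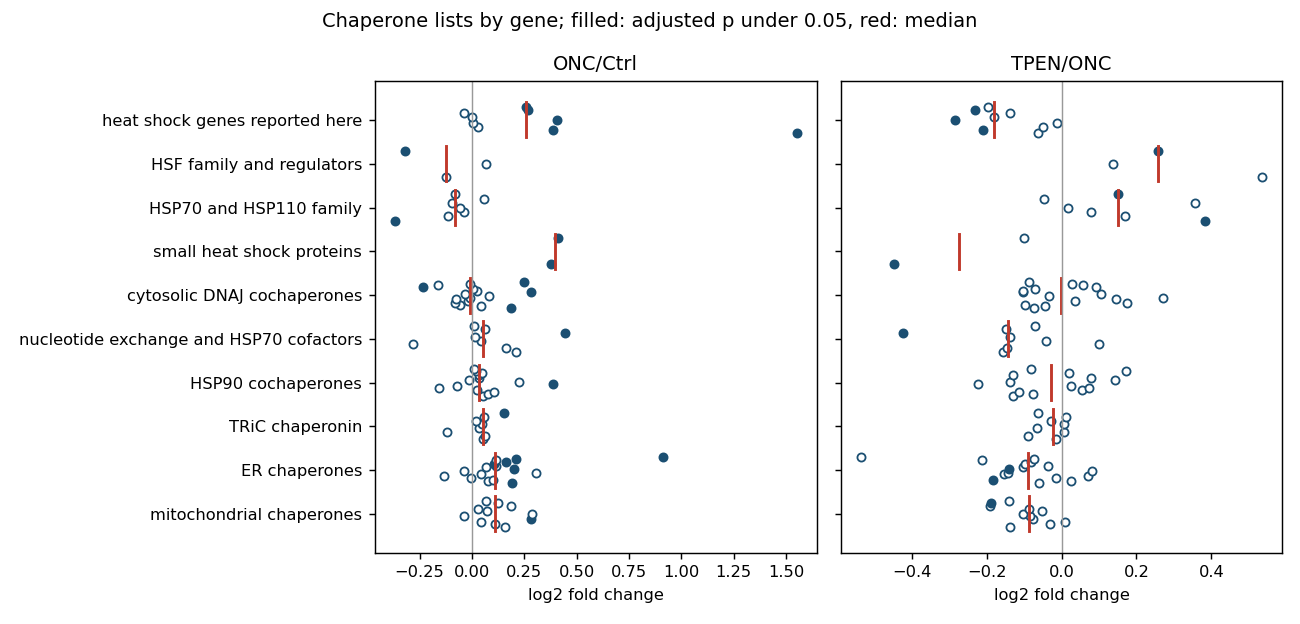
Log2 fold change (horizontal axes, log2(RPKM + 0.1) scale) of each tested gene of the chaperone lists in ONC/Ctrl and TPEN/ONC. Each point is a gene, filled where its adjusted p was under 0.05, and red lines are list medians. The median of the heat shock genes is 0.26 and -0.18, while the lists of HSP90 cochaperones and TRiC lie near 0 in both panels.

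Chaperones listed for other compartments were set beside the genes listed as cytosolic. In the endoplasmic reticulum (ER), 6 of 16 genes were higher in ONC/Ctrl, or 37.5%, where 11.7% of all genes were. The largest of these differences was that of Sdf2l1, a low gene at means of 1.41 (Ctrl), 2.68 (ONC) and 1.87 RPKM (TPEN), with 0.91 on the log2 scale (limma adjusted p = 0.0225). It lost the call without Ctrl replicate 2 or ONC replicate 1 or 2 (adjusted p of at most 0.075). Pdia6, a disulfide isomerase, followed with 0.21 (limma adjusted p = 0.0045), and Hspa5, which encodes the ER HSP70, with 0.20 (limma adjusted p = 0.00079). In TPEN/ONC, 2 ER genes were lower, or 12.5%, where 4.14% of all genes were. Creld2 differed by -0.18 on the log2 scale (limma adjusted p = 0.0272) and lost the call without ONC replicate 1 or 3 or any TPEN library (adjusted p of at most 0.0955) and with quantile normalization (0.0659). Hspa5 differed by -0.14 (limma adjusted p = 0.0158) and lost the call without ONC replicate 2 or 3 or TPEN replicate 3 (adjusted p of at most 0.0649). In TPEN/Ctrl, Pdia6, Calr and Canx passed as higher, with 0.13, 0.13 and 0.10 on the log2 scale (limma adjusted p = 0.0494, 0.0062 and 0.0426). They were 18.8% of the ER list, where 8.36% of all genes were higher. The calls of Pdia6 and Canx were each lost without any TPEN library, without Ctrl replicate 2 or 3 and without ONC replicate 1 or 3. That of Pdia6 was also lost without Ctrl replicate 1 and that of Canx without ONC replicate 2 (adjusted p of at most 0.145). Among 11 mitochondrial chaperones and proteases, Grpel1, which shares 411 exon bases with Tada2b on the other strand, rose by 0.28 on the log2 scale in ONC/Ctrl (limma adjusted p = 0.0070) and 0.21 in TPEN/Ctrl (limma adjusted p = 0.0412), and Lonp1 was lower in TPEN/ONC, with -0.19 (limma adjusted p = 0.0277). Each call was 9.09% of this list. Of all genes, 11.7% were higher in ONC/Ctrl, 8.36% higher in TPEN/Ctrl and 4.14% lower in TPEN/ONC. The call of Lonp1 was lost without TPEN replicate 2 or 3 or any ONC library (adjusted p of at most 0.0976) and with quantile normalization (0.0654). That of Grpel1 in TPEN/Ctrl was lost without Ctrl replicate 1 or 3, TPEN replicate 1 or 2 or any ONC library (adjusted p of at most 0.129).

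Markers of other cells moved with the same groups. All 11 microglia and macrophage markers tested rose after ONC, where 11.7% of all genes did. In TPEN/ONC, 6 of them were lower, where 4.14% of all genes were. The log2 fold change in ONC/Ctrl was 3.68 for Itgam, 3.39 for C1qa and 3.13 for C1qb (limma adjusted p of at most 1.2e-05). The summed level of the 11 was 4.05 to 4.95 RPKM in Ctrl, 42.8 to 44.0 in the ONC and 21.8 to 23.7 in the TPEN libraries. The 3 astrocyte markers in the table summed to 5.54 to 6.21 RPKM in Ctrl, 27.2 to 28.3 in the ONC and 17.3 to 20.0 in the TPEN libraries. The 10 Müller glia markers summed to 588.6 to 604.4, 667.4 to 678.8 and 538.5 to 548.6 RPKM in the same order. The Müller glia markers were split in ONC/Ctrl, where Vim, Apoe and Clu rose by 1.59, 0.64 and 0.62 on the log2 scale and Glul, Aqp4 and Rlbp1 fell by 0.57, 0.32 and 0.18 (limma adjusted p of at most 0.01005). The 10 RGC markers in the table summed to 367.9 to 377.7, 391.9 to 413.6 and 306.8 to 320.4 RPKM, and of 7 tested, Gap43, Nefm and Sncg rose in ONC/Ctrl and Nefh fell. The sum of the 10 rod markers was 19970 to 20579 RPKM in Ctrl, 17620 to 17713 in the ONC and 18804 to 18846 in the TPEN libraries. In ONC/Ctrl, 7 rod markers were lower, where 6.97% of all genes were, and Sag was higher (0.08 on the log2 scale, limma adjusted p = 0.0421). Amacrine markers summed to 32.7 to 34.7 RPKM in Ctrl, 28.2 to 29.1 in the ONC and 33.3 to 35.3 in the TPEN libraries, and bipolar markers to 80.8 to 83.3, 73.9 to 75.2 and 77.4 to 80.96 RPKM. In each group, every marker in the table had reads in at least 1 library. The mean levels of Hspa8, Hsp90ab1, Dnajb1, Hsph1 and Bag3 were highest in ONC, as were the mean sums of the myeloid, astrocyte, Müller glia and RGC lists. The mean sums of the rod, amacrine and bipolar lists were lowest there. Most of the RGC sum was Nefl, at means of 257.7 (Ctrl), 264.5 (ONC) and 197.9 RPKM (TPEN) (limma adjusted p = 0.473 in ONC/Ctrl). A sum thus does not stand for every gene of its list. Enzymatic dissociation of tissue is known to raise heat shock and immediate-early genes, and a list of 16 of the latter was measured beside them. Of 14 tested, 6 rose after ONC, or 42.9%, where 11.7% of all genes did. In TPEN/ONC, 3 were lower, or 21.4%, where 4.14% of all genes were. The sort followed enzymatic digestion of the retina, and whether crush or dissociation raised these genes was not tested. In ONC/Ctrl, Junb, Atf3 and Zfp36 rose by 1.37, 1.205 and 1.02 on the log2 scale (limma adjusted p of at most 0.0030), and in TPEN/ONC the differences of Fosb, Atf3 and Fos were -0.66, -0.44 and -0.25 (limma adjusted p of at most 0.0121). Junb shares 173 exon bases with Prdx2 and Zfp36 shares 125 with Gm44710, each on the other strand. The decrease of Fos lost its call without ONC replicate 1 (adjusted p = 0.0539). In TPEN/Ctrl, Junb, Atf3 and Nr4a1 rose by 1.12, 0.76 and 0.45 on the log2 scale and Fosb and Fos fell by 0.54 and 0.29 (limma adjusted p of at most 0.0162), and Nr4a1 lost its call without Ctrl replicate 2 or 3 or TPEN replicate 1 or 3 (adjusted p of at most 0.0575). The summed level of these genes was 137.6 to 146.4 RPKM in Ctrl, 172.6 to 182.4 in the ONC and 149.7 to 154.4 in the TPEN libraries. The part of these cell types and of dissociation in the differences of the heat shock genes was not tested.

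**Figure D5:**
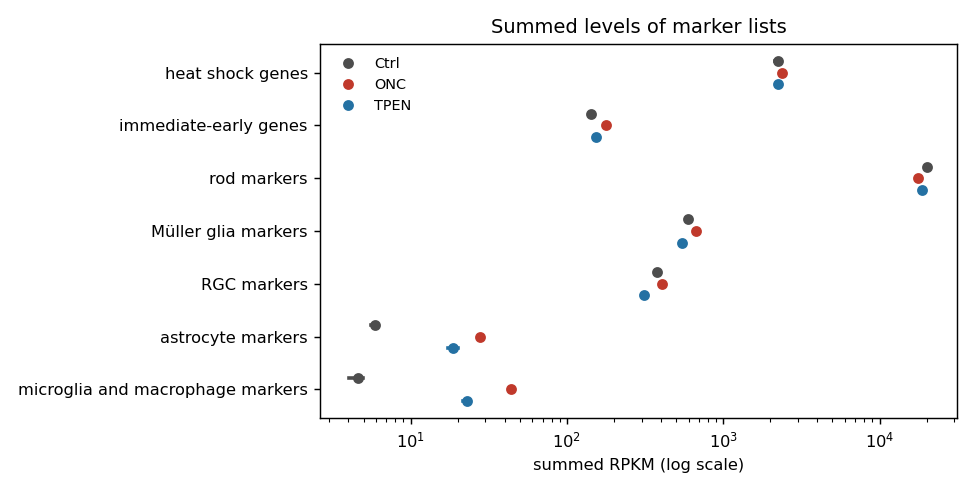
Summed RPKM (horizontal axis, log scale) of the heat shock genes, of immediate-early genes and of marker lists of 5 cell types. Dots are means of 3 libraries, and lines run from the lowest to the highest library. Microglia and macrophage markers sum to 4.61 (Ctrl), 43.6 (ONC) and 22.8 RPKM (TPEN), while the sum of the heat shock genes, mostly Hsp90aa1, stays between 2158 and 2375 RPKM.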

How the data were processed

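Total RNA of cells sorted as RGCs was sequenced with a stranded mRNA kit (9 libraries). Per the labels, Trimmomatic 0.36 and GRCm38/mm10 were used, and the authors mapped reads with STAR. The counting program, the annotation and the handling of molecular identifiers, strand and reads with several matches are not given in the sources used here. The deposited RPKM values are reads per kilobase of exon and per 1000000 reads. The deposited log2 fold changes, and the p-values and FDR values of the authors' edgeR comparisons, were not used. RPKM times exon length gave whole reads for 100% of values (tolerance 0.01), from which reads and library totals were taken.

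The 13566 genes with mean RPKM of 0.5 or more were fitted as log2(RPKM + 0.1) with limma 3.58.1 (trend, R 4.3.3) over all 9 libraries, with Benjamini-Hochberg adjustment over all genes tested. The added 0.1 makes fold changes of low genes smaller. The fit and the permutation test were tested on simulated data. Ratios were compared by exact permutation tests. Transcripts of GENCODE M21 were aligned with blastn 2.17.0. Scripts used Python 3.11.15 with scipy 1.17.1, pandas 2.3.3, matplotlib 3.10.9 and numpy 2.4.6.

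The heat shock genes and all lists were chosen with earlier results of these data known. Named were all 10 genes, up to 3 called genes of each other list per comparison and direction with the largest change and a mean of at least 1 RPKM, the 5 genes most like the mean profile and the 5 most like Hspa1b, and defining markers. For the marker lists, called genes are named for ONC/Ctrl in the microglia, Müller glia and RGC lists and for 1 rod gene, and the others are given as counts or sums. Alternatives were a pseudocount of 1, no filter and a filter of 1 RPKM, quantile normalization, TMM scaling, the 6 libraries compared, leaving out each library (for the share of the rise left, added after the data were seen), a replicate block, voom on whole reads and a 1.5-fold threshold.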

Additional observations from a re-analysis of the deposited data

How the results depend on the processing

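The 5 rises in ONC/Ctrl and the decreases of Hspa8 and Hsp90ab1 in TPEN/ONC kept their direction and their call in limma under every alternative run other than the 1.5-fold threshold, except Hsph1 without ONC replicate 3. With a fold change of at least 1.5 required, 1 of the 9 genes was called in ONC/Ctrl, 0 in TPEN/ONC (3 by adjusted p) and 1 in TPEN/Ctrl, and 0 genes of the network in each comparison (11, 5 and 6 by adjusted p). With voom on the whole reads, 5 of the 9 genes were called in TPEN/ONC, all lower, where 6.99% of all genes were, and 5 in TPEN/Ctrl, 3 higher and 2 lower, where 10.5% and 6.98% of all genes were. The network then had 12 calls among its 58 genes in TPEN/ONC, 4 higher and 8 lower, where 5.45% and 6.99% of all genes were. In the fit of only the 6 libraries compared, it had 3 calls in TPEN/Ctrl. The cause of these changes was not tested. When 1 library was left out, the calls of the 9 genes ranged from 4 to 5, 2 to 3 and 2 to 3 in ONC/Ctrl, TPEN/ONC and TPEN/Ctrl, and those of the network from 8 to 12, 1 to 6 and 2 to 6. The exact permutation p of the HSP70 ratio then ranged from 0.0179 to 0.136, and that of the HSP90 ratio stayed at 0.00357.

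Signs turned for log2 fold changes near 0 that did not pass the test. In ONC/Ctrl, quantile normalization gave -0.0056 for Hsf1 and -0.043 for Hspa1a, and TMM scaling gave -0.024 for Hspa1a and -0.021 for Hsp90aa1. In TPEN/Ctrl, quantile normalization gave 0.018 for Hsp90aa1. Scaling moved the median of all genes by less than 0.1. When 1 library was left out, the values in ONC/Ctrl ranged from -0.064 to 0.079 for Hsf1, -0.031 to 0.020 for Hsp90aa1, -0.030 to 0.057 for Hspa1a and -0.10 to 0.055 for Hspa1b. In TPEN/ONC they ranged from -0.16 to 0.12 for Bag3. In TPEN/Ctrl they ranged from -0.11 to 0.030 for Hsf1 and -0.043 to 0.0083 for Hsp90aa1.

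Libraries of different groups share replicate numbers. Their deviations from the group means correlated at -0.0623 to 0.0268 for the same number and at -0.0375 to 0.0511 for different numbers. Such correlations over all genes cannot show whether libraries of the same number share mice or handling. With the replicate number as a block, the calls of the network were 3 in TPEN/ONC and 2 in TPEN/Ctrl, the exact permutation p of the HSP70 ratio was 0.0833 and that of the HSP90 ratio 0.0278 (36 splits), and Dnajb1 (adjusted p = 0.0876), Hsf2 (0.108), Hspbp1 (0.0871), Hspa5 (0.0521) and Lonp1 (0.0728) lost their calls in TPEN/ONC, Sdf2l1 in ONC/Ctrl (0.0532), and Canx, Dnaja4, Dnajc5, Dnajc8, Grpel1, Hsbp1 and Pdia6 in TPEN/Ctrl (0.0566 to 0.106). In TPEN/Ctrl, Canx, Grpel1, Hsbp1 and Pdia6 also lost theirs with quantile normalization and TMM scaling (0.0594 to 0.111), Dnajc8 with TMM scaling (0.0541), and all of these and Dnajc5 in the fit of the 6 libraries compared (0.0524 to 0.0936). Depth bears most on Bag3, with 46 to 242 reads in a library, while the other 8 genes had at least 254.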
